A study of Danio rerio with 18 samples.

Results

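Irradiated zebrafish embryos that lack puma, noxa and p21 had lower levels of 62 transcripts 1 h after X-rays, and these transcripts are followed here to 2 h and 3 h and into 2 other genotypes. They were chosen by measured values. The mean of log2(TPM + 1) at 1 h lay at least 0.8 below that of untreated embryos. Both libraries at 1 h lay below both untreated libraries, and the untreated mean was 5 TPM or more. Genes with a mitochondrial symbol were left out. TPM is a transcript level corrected for gene length and scaled to the same sum in every library. Of 32057 genes in the tables, 9705 reached the untreated minimum and 62 met the whole rule. All 62 also passed a filter on low values that left 18575 genes, and the rule took 0.334% of those.

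Whole embryos were irradiated 30 h after fertilization with 30 Gy of X-rays at 5 Gy per min, and RNA was sequenced after poly(A) selection. The triple mutant, which carries p53 and lacks the cell death genes puma (bbc3) and noxa (pmaip1) and the cell cycle inhibitor p21 (cdkn1a), was sampled untreated and 1 h, 2 h and 3 h after irradiation. Embryos without p53 (p53 -/-) were sampled untreated, after 1 h and after 3 h, and wild type embryos after 3 h and untreated. Each of the 9 groups has 2 libraries, and the labels do not say whether these come from separate clutches, so the p-values measure only the spread between libraries. All embryos carry the same 30 h stage label, and when the untreated ones were collected is not given in the sources used here.

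A cell that enters mitosis makes a set of transcripts that accumulate in the G2 phase and are lost after division, among them cyclins, spindle proteins and the kinases that start chromosome segregation. Ionizing radiation breaks DNA and activates checkpoint kinases, which stop cells before mitosis by routes that need p53 and by routes that do not. In fish embryos of this stage the skin also builds the fin fold, whose stiff fibrils contain actinodins and collagens.

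The p53 target mdm2 had 721.85 and 805.93 TPM in triple mutants at 3 h, against 54.8 and 53.25 TPM in untreated ones. Transcripts of bbc3, pmaip1 and cdkn1a were still present in the triple mutant, so their levels do not check that genotype. Markers of muscle, epidermis, neurons and blood were detected in every library, for example krt4 at 6142 to 14772 TPM. The untreated libraries of the p53 mutant and the wild type, and those of the p53 mutant at 1 h, each pair a library with over 300 TPM of 5.8S ribosomal RNA with a library of 13.6 to 52.8 TPM. All other libraries are listed at 0 for it. Library pairs of the triple mutant had r = 0.991 to 0.994 over genes, and the pair of the p53 mutant at 1 h had the lowest (r = 0.907). Time after irradiation and 5.8S content cannot be told apart where 3 h is set against untreated in the p53 mutant or the wild type, or against 1 h in the p53 mutant.

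The largest group of members, 18 genes, is called the cell division group here, and 2 of them are genes of DNA metabolism. It holds the cyclins CCNB1, ccnb3 and CCNF, the CDK-binding protein cks2, the mitotic kinase aurka and its cofactor bora, the ubiquitin system genes UBE2S and g2e3, the spindle and kinetochore genes ASPM, troap, fam83d, CENPF, kifc1 and oip5, the midzone and ring genes PRC1 (ENSDARG00000005993) and anln, and 2 genes of DNA metabolism, the helicase PIF1 and the PARP1-binding protein PARPBP. A further 10 are matrix and fin fold genes (and1, and2, and3, col1a1a, COL1A1, col5a3b, FREM1, vcanb, ecm2 and paplna), 4 are epithelial (evpla, DSP (ENSDARG00000076673), muc13a and tmprss9), 4 are transcription factors (LMX1B (ENSDARG00000104815), MYF6, KLF4 and bhlha9), 4 are small nuclear or nucleolar RNAs, 8 are other named genes and 14 carry only a clone name or identifier. Roles of genes written in capitals are those of the human gene. These groups were formed with the values known, so they are described and not tested.

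**Figure D1:**
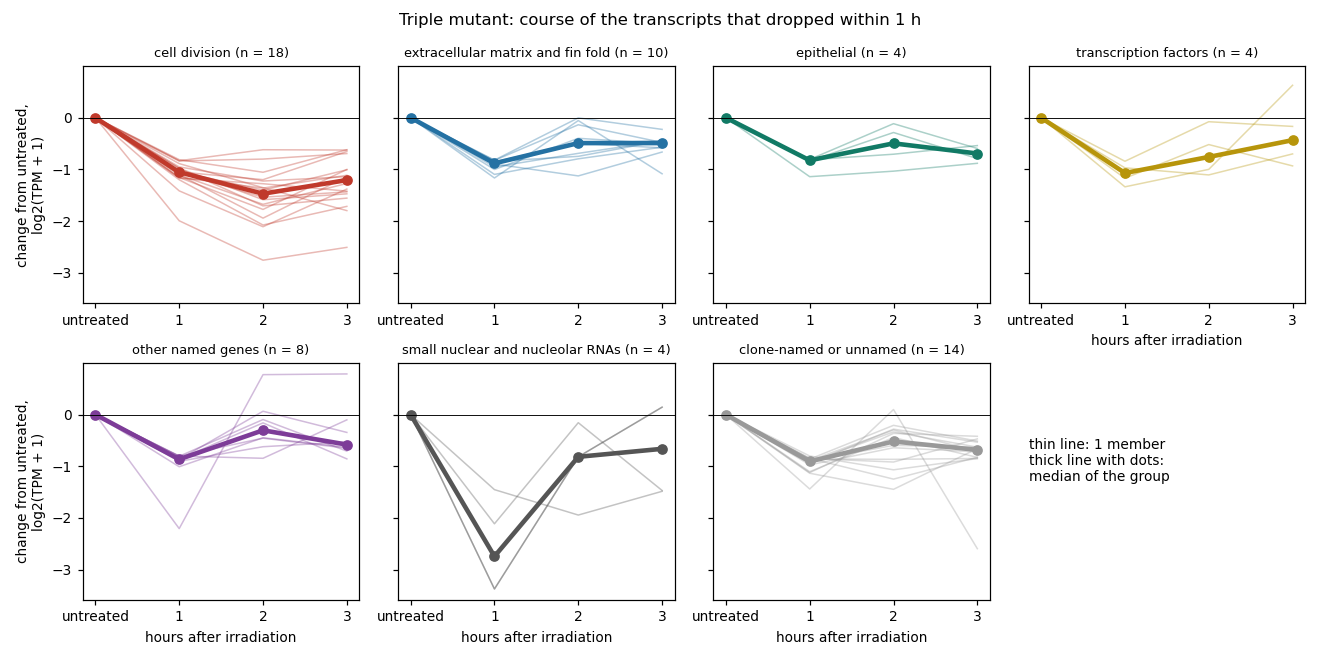
Change of each member from the untreated mean on the log2(TPM + 1) scale (vertical axis) against hours after irradiation in the triple mutant (horizontal axis), in 1 panel per role. Thin lines are members and thick lines group medians; the cell division median is -1.05 at 1 h, -1.47 at 2 h and -1.21 at 3 h, whereas that of the matrix and fin fold genes is -0.88, -0.49 and -0.49.

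After 1 h the cell division members and the rest took different courses in the triple mutant. The median change from untreated of the 18 cell division members was -1.05 at 1 h, -1.47 at 2 h and -1.21 at 3 h. The other 44 members had medians of -0.90, -0.49 and -0.61, beside 0.00, 0.16 and 0.07 for all genes tested. From 1 h to 2 h, 16 of the 18 cell division members had a lower mean, whereas 35 of the 44 others had a higher one. Without overlap, 14 of the 18 were lower and 31 of the 44 higher, beside 2468 and 8859 of the 18575 genes tested. The median change over this step was -0.47 in cell division members, 0.56 in the others and 0.16 in all genes. By 3 h, 7 members were within 0.3 of the untreated mean or above it, 16 were at least 0.3 above their 1 h mean without reaching it, 32 were within 0.3 of the 1 h mean and 7 were at least 0.3 lower still. The 32 are said to have stayed low, a label that leaves out their 2 h values. Among cell division members 0 had returned, bora had partly returned, 11 stayed low and 6 were lower still (PIF1, PARPBP, CENPF, aurka, troap and ASPM). These comparisons use the libraries that chose the members, so they carry no test.

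PIF1, a helicase that unwinds DNA, had the largest change at 1 h among the cell division members. It had 9.35 and 9.51 TPM in untreated triple mutants, 1.57 and 1.67 at 1 h, 0.62 and 0.47 at 2 h, then 0.9 and 0.77 at 3 h. No irradiated library came near the untreated ones, and the 2 h libraries were the lowest. The cyclin gene ccnb3 had 26.66 and 29.54 TPM untreated, 10.25 and 9.56 at 1 h, 6.05 and 5.44 at 2 h, then 10.42 and 9.92 at 3 h. Its 3 h libraries were back at the 1 h level, above both 2 h libraries. PARPBP, which in human cells restrains homologous recombination, had 9.56 and 9.42 TPM untreated, 3.22 and 3.94 at 1 h, 1.58 and 1.4 at 2 h, then 2.52 and 1.9 at 3 h.

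The kinase aurka, which matures centrosomes and the spindle, had 45.83 and 46.44 TPM in untreated triple mutants, 20.87 and 25.07 at 1 h, 12.93 and 14 at 2 h, then 14.13 and 15.99 at 3 h. CCNB1, the cyclin partner of the mitotic kinase Cdk1, had 90.01 and 84.96 TPM untreated, 46.66 and 52.29 at 1 h, 40.22 and 42.94 at 2 h, then 60.08 and 53.29 at 3 h. Both stayed below the untreated libraries at every time, and CCNB1 at 3 h lay above its own 1 h values. ASPM, a spindle pole protein, went on to lower levels, with 7.66 and 7.33 TPM untreated, 2.91 and 4.39 at 1 h, 2.13 and 2.53 at 2 h, then 1.39 and 1.5 at 3 h. The cofactor bora, named because it alone had partly returned, had 8.25 and 7.46 TPM untreated, 2.53 and 4.18 at 1 h, 2.89 and 2.82 at 2 h, then 4.08 and 5.23 at 3 h. For the spindle gene fam83d the mean was lowest at 3 h, with 10.82 and 11.92 TPM untreated, 4.19 and 4.81 at 1 h, 4.44 and 3.78 at 2 h, then 3.75 and 3.49 at 3 h. All 18 cell division members lay below both untreated libraries at 2 h and again at 3 h, beside 17.2% and 20.9% of all genes tested. The rule chose the members with these untreated libraries, so the counts carry no test.

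A wider list of mitosis genes had smaller median changes, which at 1 h follows from the rule that chose the members. This list has 83 tested genes and holds 11 of the members, 13.3% of the list, beside 0.334% of all genes tested. Its median change in the triple mutant was -0.23 at 1 h, -0.40 at 2 h and -0.53 at 3 h. Of its 83 genes, 66 were below 0 at 1 h, beside 9114 of the 18575 genes tested. A list of 56 DNA replication genes holds 0 members and had medians of 0.13, 0.32 and -0.07. Of the 25 lists compared, 20 hold no member, with medians at 1 h between -0.26 and 0.30, and the immediate early, neural transcription factor, muscle and epidermis lists hold 1 each (KLF4, LMX1B, MYF6 and evpla).

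**Figure D2:**
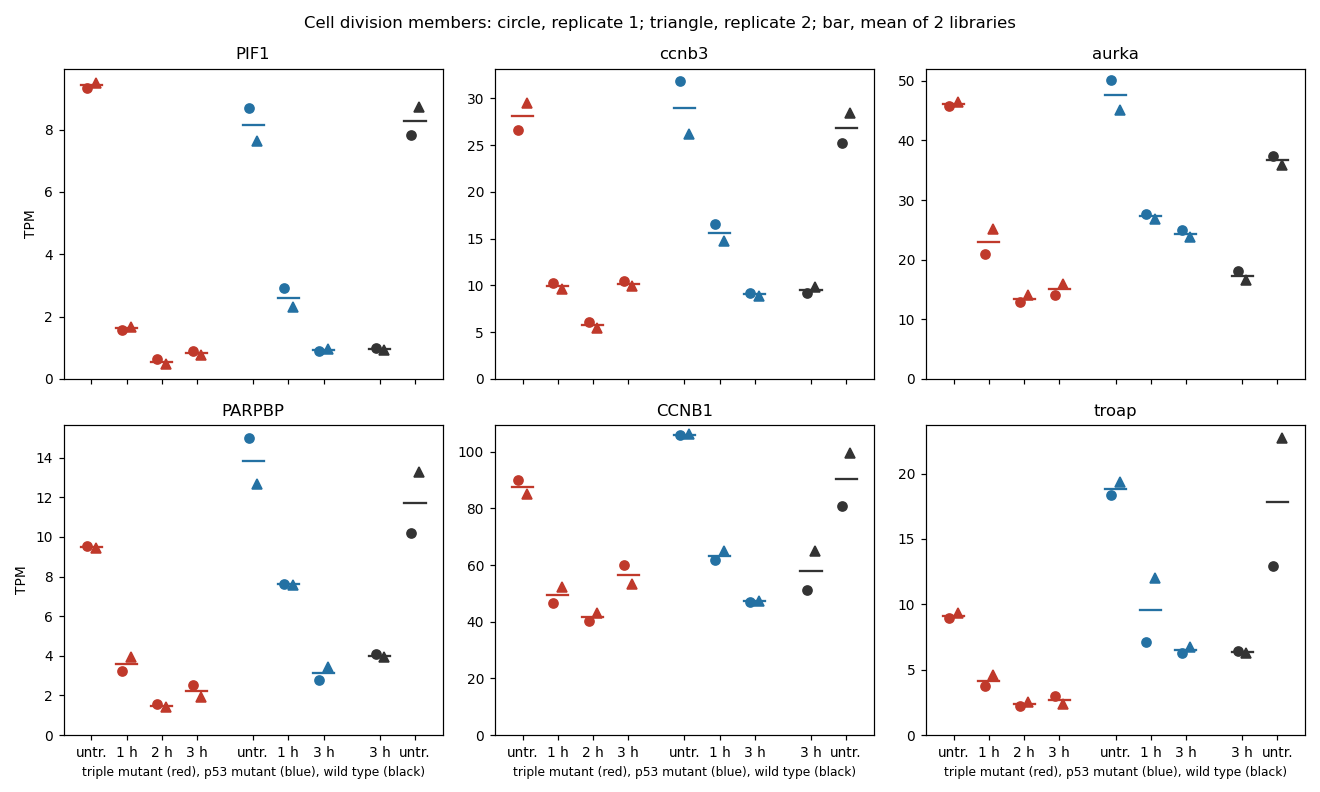
TPM in every library (vertical axis, from 0) of 6 cell division members, for the triple mutant (red), the p53 mutant (blue) and the wild type (black), with groups along the horizontal axis and bars at the mean of 2 libraries. In each genotype every irradiated library lies below both untreated libraries, and in the triple mutant the 2 h libraries have the lowest mean.

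Between 2 h and 3 h, both outside the rule, most cell division members were higher at the later time without any passing the test over all groups. Of the 62 members, 27 were higher in both 3 h libraries than in both 2 h libraries, beside 19.7% of all genes tested, and 14 of these 27 are in the cell division group. Another 19 were lower without overlap, beside 43.5% of all genes. The median change of the cell division members was 0.25, against -0.09 for all genes tested. The wider list of 83 mitosis genes did not share this rise. Its median change from untreated was -0.40 at 2 h and -0.53 at 3 h, beside 0.16 and 0.07 for all genes. limma called 0 members at an adjusted p (Benjamini-Hochberg) under 0.05, beside 0.253% of all genes, and 8 members had an unadjusted p under 0.05, beside 3.87% of all genes. The change of ccnb3, 0.73 (SE 0.15), had an adjusted p of 0.0996.

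A fit within the triple mutant table alone called 15 members and 6.12% of the genes it tested. Of these, 11 were higher at 3 h, among them ccnb3, CCNB1, cks2 and oip5 in cell division, the fin fold gene and3, the vitamin B12 carrier tcnbb and the limb and fin transcription factor bhlha9. The 4 lower ones were evpla, a cell envelope protein, the transporter abcb5, btr01 and si:dkey-222f2.3. A model with a term for 5.8S class called ccnb3, cks2 and tcnbb, all higher, beside 1.19% of all genes. This term leaves every change between groups as it was and alters only the error. In the model over all groups the count was 1 without either library of the p53 mutant at 1 h, and 11 without the libraries of high or of low 5.8S content, where 5.11% and 5.1% of all genes were called.

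By 3 h, 9 of the 10 matrix and fin fold genes lay above both 1 h libraries without overlap, beside 5125 of the 18575 genes tested. The rule chose the members for low values in these 1 h libraries, so a rise from them carries no test. From 2 h to 3 h, outside the rule, the matrix median was -0.03, with 5 of 10 below 0, beside -0.09 for all genes. The actinodin and1, a protein of the fin fold fibrils, had 159.3 and 141.8 TPM in untreated triple mutants, 62.84 and 77.4 at 1 h, 82.23 and 90.32 at 2 h, then 97.78 and 104.17 at 3 h. Its libraries at each later time lay above those of the time before, and all stayed below the untreated ones. The actinodin and3 had 58.52 and 54.94 TPM untreated, 28.7 and 31.39 at 1 h, 25.68 and 25.2 at 2 h, then 35.34 and 35.49 at 3 h, with its lowest values at 2 h. The type I collagen gene col1a1a had 314.87 and 282.46 TPM untreated, 122.99 and 179.04 at 1 h, 224.46 and 227.63 at 2 h, then 213.16 and 207.33 at 3 h.

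A second type I collagen gene, COL1A1, was the only matrix member back within 0.3 of untreated at 3 h. It had 142.14 and 122.65 TPM untreated, 59.38 and 93.02 at 1 h, 128.15 and 135.41 at 2 h, then 111.68 and 113.88 at 3 h. The 2 h values lay between the untreated ones, and both 3 h values lay just under them. Of the 10 matrix genes, 6 had partly returned at 3 h and 3 were within 0.3 of the 1 h mean (and3, FREM1 and paplna). At 2 h paplna had 11.85 and 13.29 TPM, against 13.83 and 12.36 untreated, and at 3 h 4.27 and 7.36. All 10 remained below both untreated libraries at 3 h, beside 20.9% of all genes. Those untreated libraries also served the rule, so this count carries no test. The names of and1, col1a1a, COL1A1 and other matrix and epithelial genes were picked after their values were seen.

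The 4 epithelial members were within 0.3 of their 1 h means at 3 h. Envoplakin (evpla) had 17.11 and 13.98 TPM in untreated triple mutants, 7.51 and 9 at 1 h, 12.26 and 12.76 at 2 h, then 8.58 and 8.47 at 3 h, so the 2 h libraries were the highest after irradiation. The desmosome gene DSP (ENSDARG00000076673) had the same order, with 14 and 11.8 TPM untreated, 5.67 and 8.4 at 1 h, 12.4 and 11.21 at 2 h, then 8.53 and 7.83 at 3 h. A list of 27 tested epidermis genes, of which evpla is 1, had a median change of -0.42 at 1 h, -0.36 at 2 h and -0.41 at 3 h. At 1 h, 21 of them were lower without overlap, beside 20.3% of all genes. In the other genotypes its medians were -0.03 in the p53 mutant at 1 h and 0.25 and 0.23 in the p53 mutant and the wild type at 3 h. In the triple mutant their summed level was 39974.4 to 40490.8 TPM untreated, 28937.3 to 30242.5 at 1 h, 30527.2 to 30544.2 at 2 h and 28285.8 to 29331.2 at 3 h. In whole embryos fewer cells of a type and less RNA per cell cannot be told apart, and the part of the epidermis genes in the matrix and epithelial values was not tested.

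Among the transcription factors, LMX1B (ENSDARG00000104815) and MYF6 had returned at 3 h, while KLF4 and bhlha9 stayed low. The myogenic factor MYF6 had 8.38 and 6.37 TPM untreated, 2.62 and 4.94 at 1 h, 6.83 and 6.93 at 2 h, then 5.93 and 6.9 at 3 h. KLF4, a zinc finger factor whose transcript turns over fast, had 5.81 and 5.75 TPM untreated, 1.63 and 2.45 at 1 h, 3.95 and 3.52 at 2 h, then 2.78 and 2.34 at 3 h. LMX1B had 19.2 and 3.61 TPM in the untreated libraries, so its replicates differ more than most groups do, and 2.55 and 3.11 at 1 h.

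Several of the largest drops at 1 h rest on low or uneven values. The calmodulin-binding gene PCP4 (ENSDARG00000110729) had 5.74 and 18.66 TPM in untreated triple mutants, 0 and 5.22 at 1 h, 12.15 and 28.36 at 2 h, then 22.98 and 15.41 at 3 h. Its 2 h and 3 h libraries lay within or above the untreated range. The 2 members named U2 (ENSDARG00000111709 and ENSDARG00000115186), genes of a spliceosomal RNA, hold identical values in every library, so 61 members are distinct. They had 9.01 and 9.75 TPM untreated, were listed at 0 in both libraries at 1 h, and had 6.35 and 3.71 at 2 h and 9.01 and 12.09 at 3 h. U2 lacks a poly(A) tail, and both genes are listed at 0 in all p53 mutant libraries. The clone-named si:dkey-222f2.3 had 0.1 and 5.38 TPM at 1 h, against 5.93 and 6.46 TPM untreated, so that replicate 1 carried its mean below the threshold.

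The nucleolar RNA genes U3 (ENSDARG00000115704), which acts in ribosomal RNA processing, and SNORA74 (ENSDARG00000102120) also had uneven libraries after irradiation. U3 had 5 and 16.32 TPM in untreated triple mutants, 0 and 4.55 at 1 h, 5.3 and 12.25 at 2 h, then 12.56 and 0 at 3 h. Both 2 h libraries lay within the untreated range, and the 3 h pair spans the 1 h and 2 h values. SNORA74 had 12.23 and 10.58 TPM untreated, 5.86 and 1.98 at 1 h, 0 and 9.34 at 2 h, then 2.66 and 4.34 at 3 h, all below the untreated libraries.

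The 8 other named genes had medians of -0.87 at 1 h, -0.31 at 2 h and -0.58 at 3 h. Sepiapterin reductase, SPR (ENSDARG00000058553), an enzyme of pterin synthesis, had 40.52 and 37.6 TPM untreated, 17.27 and 24.02 at 1 h, 24.27 and 25.75 at 2 h, then 28.65 and 24.91 at 3 h. The receptor gene ERBB3 had 15.7 and 15.13 TPM untreated, 6.35 and 8.04 at 1 h, 12.01 and 10.11 at 2 h, then 11.24 and 8.15 at 3 h. Both, named after their values were seen, stayed below the untreated libraries. The transcobalamin gene tcnbb was back within 0.3 of untreated only at 3 h, with 100.38 and 81.37 TPM untreated, 53.33 and 49.5 at 1 h, 50.56 and 49.09 at 2 h, then 77.79 and 90.87 at 3 h, where it overlapped the untreated range.

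Among the 14 genes with a clone name or identifier, 0 had returned, 5 had partly returned, 8 stayed low and 1 was lower still. Their medians were -0.91, -0.52 and -0.68. The mean of si:ch211-266i6.3 hardly differed between the times after irradiation, with 19.95 and 17.87 TPM in untreated triple mutants, 9.1 and 10.9 at 1 h, 9.53 and 10.29 at 2 h, then 10.03 in both libraries at 3 h. It was also lower without overlap at 3 h in the other genotypes, with 14.04 and 13.14 TPM in p53 mutants at 3 h, against 18.66 and 24.1 TPM in untreated ones, and 13.97 and 14.95 TPM in the wild type at 3 h, against 19.2 and 24.71 TPM untreated. This gene was named after its values were seen.

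The identifier ENSDARG00000080337, without a symbol, was the most abundant member, and its level differed between the tables. The rule left out mitochondrial genes by symbol, so it could not screen this one, and what the gene is was not known here. This identifier had 5557 and 4531 TPM in untreated triple mutants, 2439 and 2138 at 1 h, 1676 and 2020 at 2 h, then 2858 and 3533 at 3 h, against 101 to 572 TPM in the libraries of the other genotypes. At the threshold itself, trpm1b, tcnbb and si:ch211-207c6.2 were the last members inside, at -0.804, -0.803 and -0.802, and NOS1, lamb4 and a gene without a symbol were just outside, the first pair at -0.798 and -0.797.

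The 2 libraries at 1 h did not contribute alike. Replicate 1 was lower than replicate 2 in 49 of the 62 members, and in 14079 of the 18575 genes. Without replicate 1 the rule took 47 genes, 37 of them members, including 11 of the 18 cell division genes, 4 of the 10 matrix genes and 1 of the 4 epithelial ones. Without replicate 2 it took 158, with 58 of the members and all 18 cell division genes. Across genes the difference between the 1 h replicates correlated at r = 0.50 with that between the 1 h replicates of the p53 mutant, which differ in 5.8S content. The mitochondrial share of TPM was 4.00% and 3.57% untreated, 2.35% and 1.70% at 1 h, 1.15% and 1.48% at 2 h, then 2.37% and 2.43% at 3 h. With mitochondrial transcripts taken out of every library before scaling, the rule took 80 genes, including all 62 members, and at 1 h the cell division median was -1.08 and the matrix median -0.91, against -1.05 and -0.88 as deposited.

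**Figure D3:**
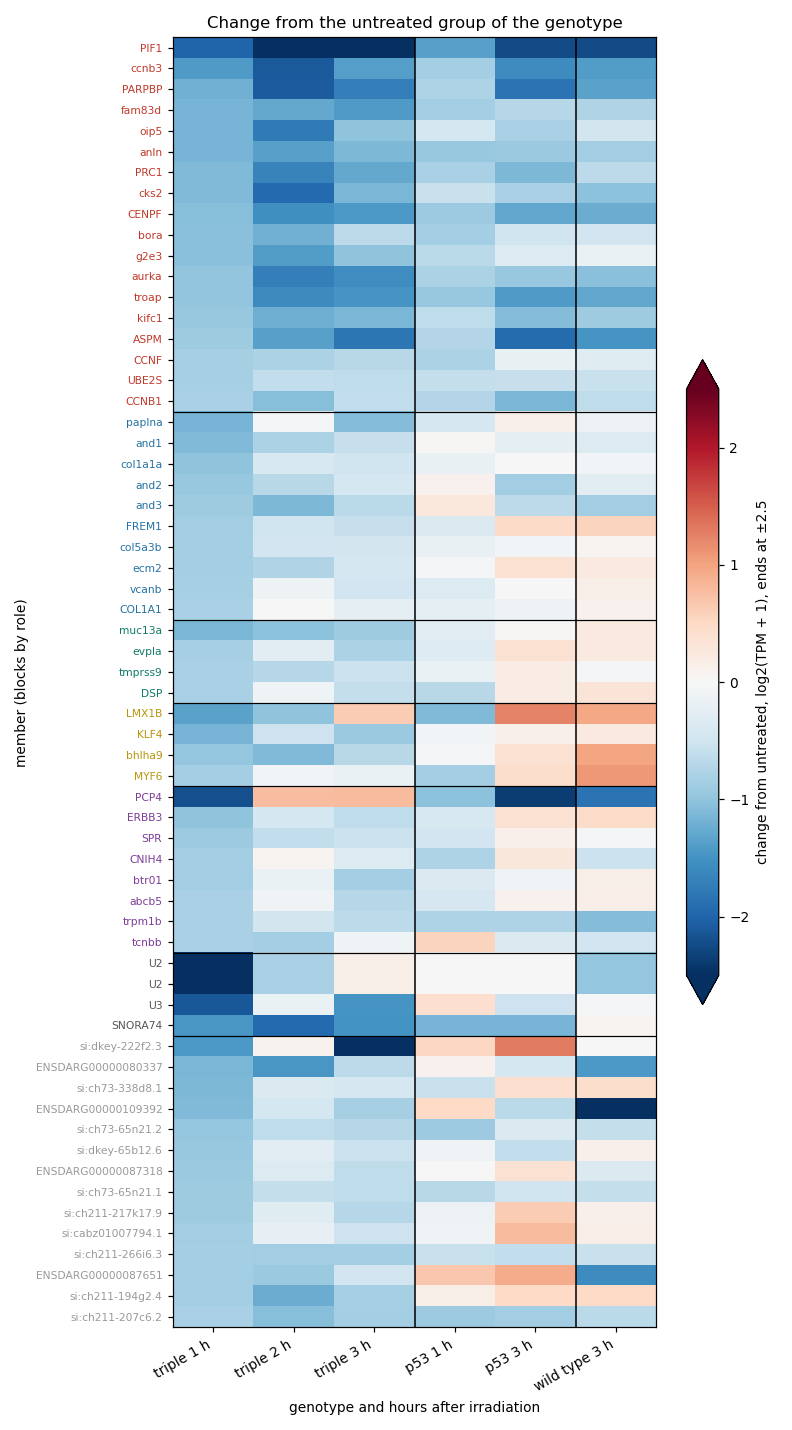
Change from the untreated mean of the same genotype on the log2(TPM + 1) scale (colour, ends at ±2.5) for all 62 members (rows, in blocks by role) in the triple mutant at 1 h, 2 h and 3 h, the p53 mutant at 1 h and 3 h and the wild type at 3 h (columns). The 18 cell division rows are below 0 in all 6 columns, whereas the 4 transcription factor rows are above 0 at 3 h in the p53 mutant and in the wild type. Of the 18575 genes tested, 5203 are below 0 at 3 h in the p53 mutant and 4619 in the wild type.

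The same hour in the p53 mutant addresses whether the drop is seen without p53. There, too, all 18 cell division members were lower, with a median change of -0.79 beside -0.15 for all genes tested. Of the 18575 genes tested, 14468 were below 0 in this comparison. Because the p53 mutant libraries at both times split by 5.8S content, the change was taken within each class, 1 library against 1. Content still differed within a class. The high class had 304.18 TPM at 1 h against 630.93 untreated, and the low class 52.8 against 13.59. The cell division median was -0.96 between the libraries of high content and -0.60 between those of low content, where all genes had -0.37 and 0.07. All 18 were lower in both classes, beside 27.1% of all genes, and 12 were lower by 0.5 or more in both, beside 0.506%. Over all 62 members the counts were 39 and 16, and the 4 outside cell division that moved by 0.5 or more in both were PCP4 (ENSDARG00000110729), LMX1B (ENSDARG00000104815), trpm1b and si:ch211-207c6.2.

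PIF1 had 2.9 and 2.29 TPM in p53 mutants at 1 h, against 8.7 and 7.62 TPM in untreated ones. It fell by 1.35 (SE 0.16) and was the only member called by limma with Benjamini-Hochberg adjustment (adjusted p = 0.0499), and the only gene, 0.00538% of those tested. For ccnb3 the levels were 16.53 and 14.72 TPM at 1 h, against 31.87 and 26.15 TPM untreated, a change of -0.85 (SE 0.15, adjusted p = 0.767). The kinase aurka had 27.73 and 26.82 TPM at 1 h, against 50.21 and 45.17 TPM untreated, again without overlap and with an adjusted p of 0.767. Of the 10 matrix genes 7 were below 0, beside 14468 of the 18575 genes tested. Their median was -0.18, beside -0.15 for all genes. After scaling by the median of ratios 4 were below 0, and these medians were 0.01 and -0.02.

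For 16 of the 18 libraries, leaving that library out ended the call of PIF1, as did 6 other settings. Without replicate 2 of the p53 mutant at 1 h, 33 members were called lower, but so were 26.2% of all genes, whose median change was then -0.53.

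**Figure D4:**
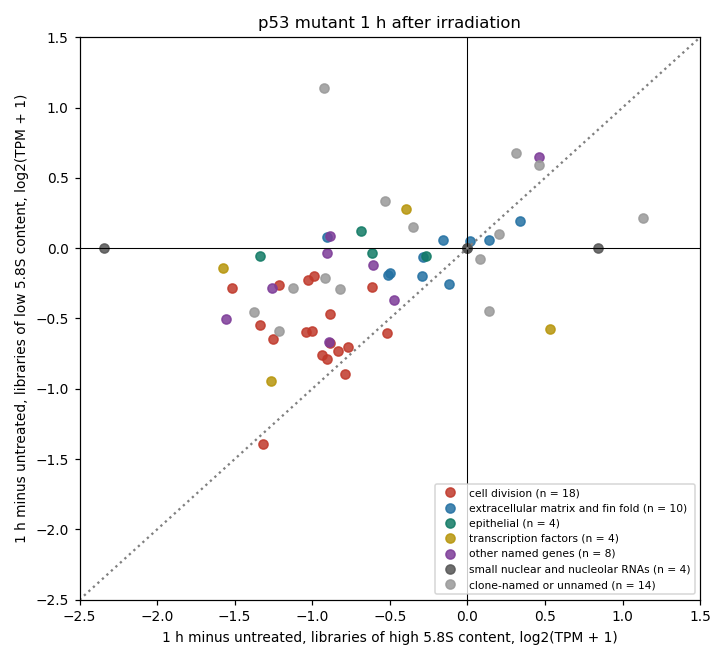
Change from untreated at 1 h in the p53 mutant on the log2(TPM + 1) scale, between the libraries of high 5.8S content (horizontal axis) and between those of low content (vertical axis), 1 point per member, coloured by role, with equal change on the dotted line. All 18 cell division points lie below and left of 0, while the matrix points lie near 0 on the vertical axis.

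At 3 h in the p53 mutant the cell division members were again lower, and the other members had a median near 0, below that of all genes. The cell division median was -1.01, against 0.02 for the other 44 members and 0.17 for all genes tested. After median-of-ratios scaling the matrix, epithelial and transcription factor medians were -0.23, 0.01 and 0.23, beside 0.01 for all genes. All 18 cell division members were lower in both 3 h libraries than in both untreated ones, as were 10 of the other 44, beside 9.96% of all genes. Another 7 members were higher without overlap, beside 36.4% of all genes. limma called 7 members lower and 0 higher, beside 0.226% of all genes called lower, and all 7 are in the cell division group, PIF1 and PARPBP as its genes of DNA metabolism. PIF1 had 0.89 and 0.97 TPM at 3 h, against 8.7 and 7.62 TPM untreated (change -2.24, SE 0.16, adjusted p = 3.48e-05). PARPBP had 2.8 and 3.42 TPM at 3 h, against 14.98 and 12.67 TPM untreated (-1.85, SE 0.19, adjusted p = 0.000614), and ccnb3 had 9.18 and 8.89 TPM, against 31.87 and 26.15 TPM (-1.57, SE 0.15, adjusted p = 0.000449). The other 4 were troap, CCNB1, PRC1 (ENSDARG00000005993) and aurka, with changes of -1.41, -1.15, -1.13 and -0.94 and adjusted p-values of 0.0427, 0.00327, 0.0202 and 0.00884.

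A fit within the p53 mutant table alone called 0 members, with 15 at an unadjusted p under 0.05 beside 2.93% of the genes it tested. A term for 5.8S class called 18 members, all lower, 14 of them in the cell division group, while 2.3% of all genes were called lower and 5.87% higher. The changes are the same with this term and only the error differs, so it does not separate time from 5.8S content. The call of troap was lost on leaving out any of 14 single libraries and in 4 other settings, whereas those of PIF1, PARPBP and ccnb3 were lost only in the within-table fit. The count was 3 without either library of the p53 mutant at 3 h and 4 without replicate 1 of the untreated p53 mutant.

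From 1 h to 3 h the p53 mutant could be followed in libraries outside the rule, but the 1 h libraries hold 5.8S ribosomal RNA and the 3 h libraries are listed at 0 for it. PARPBP, and3 and PIF1 fell, with changes of -1.07 (SE 0.19), -0.93 (SE 0.17) and -0.89 (SE 0.16), and 0 members rose, beside 0.205% of all genes called lower by limma (adjusted p = 0.031, 0.0401 and 0.0353, Benjamini-Hochberg). The actinodin and3 had 51.26 and 44.11 TPM at 3 h, against 103.88 and 80.33 TPM at 1 h. The cell division median was -0.34, while the other members had 0.29 and all genes tested 0.33. The within-table fit called 0, with 7 members at an unadjusted p under 0.05 beside 4.04% of genes, leaving out any single library of the triple mutant or of the p53 mutant at 3 h also gave 0, and the count was 1 without either wild type library at 3 h or replicate 1 of the p53 mutant at 1 h, and 5 without either untreated wild type library. Without replicate 2 of the p53 mutant at 1 h, 28 members were called, 22 of them higher, as were 51.8% of all genes. Without the libraries of high or of low 5.8S content it was 18 and 39 members, beside 16.6% and 72.7% of all genes.

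**Figure D5:**
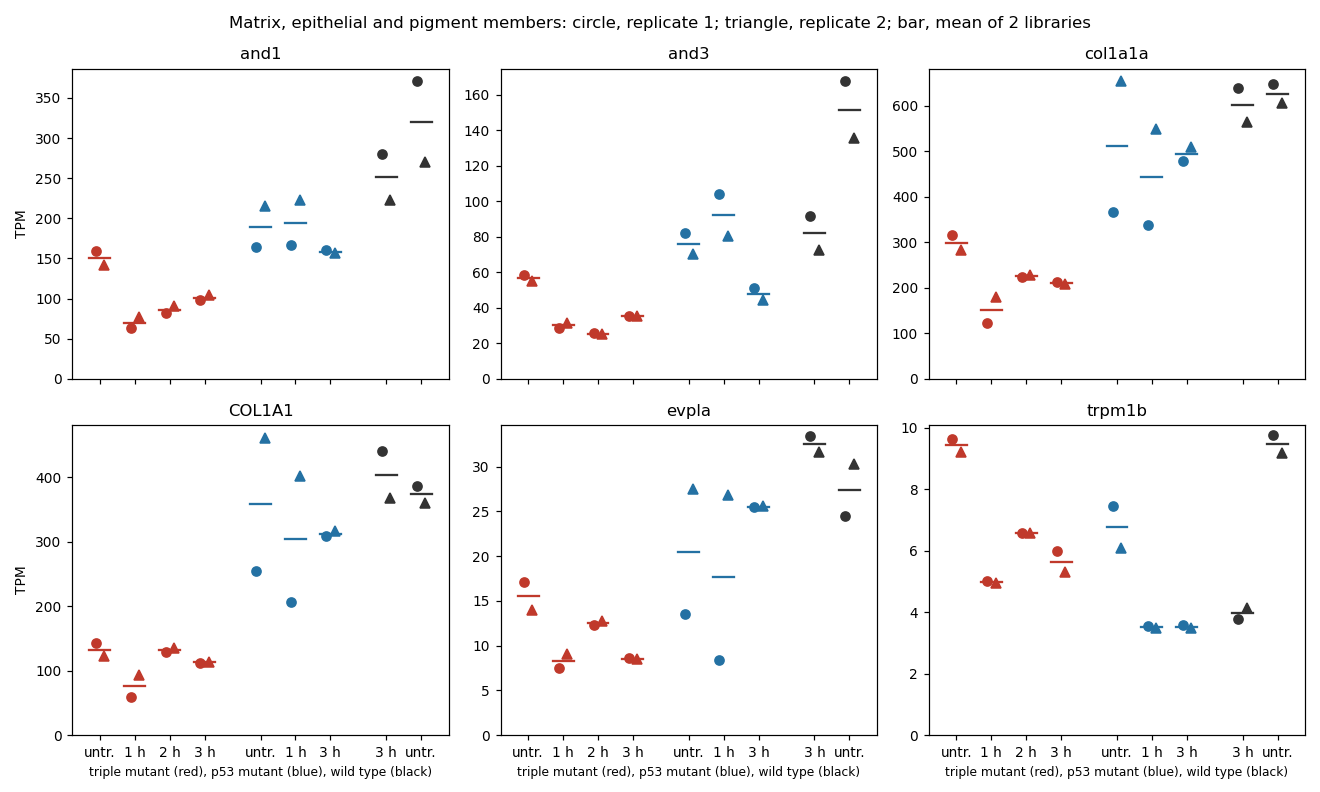
TPM in every library (vertical axis, from 0) of and1, and3, col1a1a, COL1A1, evpla and trpm1b, for the triple mutant (red), the p53 mutant (blue) and the wild type (black), with groups along the horizontal axis and bars at the mean of 2 libraries. The p53 mutant libraries of col1a1a, COL1A1 and evpla at 1 h and untreated lie far apart by replicate, whereas trpm1b is lower in every irradiated library of all 3 genotypes than in the untreated ones.

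In wild type embryos at 3 h the cell division members were again lower. Their median change was -0.88, against -0.01 for the other 44 members and 0.23 for all genes tested, and 17 of the 18, all but g2e3, were lower without overlap, as were 10 of the other 44, beside 6.78% of all genes. In the wild type 7 members were higher without overlap, beside 36% of all genes. limma called 10 members lower and 0 higher, beside 0.668% of all genes called lower, and 7 of the 10 are in the cell division group, again with PIF1 and PARPBP. PIF1 had 0.99 and 0.93 TPM at 3 h, against 7.84 and 8.74 TPM untreated (-2.24, SE 0.16, adjusted p = 8.74e-06). For ccnb3 the values were 9.16 and 9.83 TPM at 3 h, against 25.22 and 28.47 TPM (-1.41, SE 0.15, adjusted p = 0.000257), and for aurka 18.05 and 16.52 TPM, against 37.37 and 35.97 TPM (-1.04, SE 0.14, adjusted p = 0.00135). PARPBP, troap, cks2 and CCNB1 fell, with changes of -1.34, -1.30, -1.02 and -0.63 and adjusted p-values of 0.00209, 0.0184, 0.0373 and 0.0381. The call of CCNB1 was lost on leaving out any of 15 single libraries and in 3 other settings, and that of cks2 with any of 14 libraries and in 2 other settings.

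Outside cell division, trpm1b, and3 and an identifier without a symbol were called. The cation channel gene trpm1b, of the melastatin family known from pigment cells, had 3.78 and 4.15 TPM in the wild type at 3 h, against 9.78 and 9.18 TPM untreated (-1.08, SE 0.16, adjusted p = 0.00253). The actinodin and3 had 91.65 and 72.49 TPM at 3 h, against 167.51 and 135.61 TPM untreated (-0.88, SE 0.17, adjusted p = 0.0163). ENSDARG00000109392 had 82.47 and 11.74 TPM at 3 h, against 336.47 and 169.63 TPM untreated, an uneven pair (-2.88, SE 0.68, adjusted p = 0.0403). The transcription factor median was 0.97, and 0 of the 4 were below 0, beside 4619 of the 18575 genes tested, whose median was 0.23. The call of ENSDARG00000109392 was lost on leaving out any of 13 libraries and in 5 other settings. A fit within the wild type table called PIF1 alone, and a 5.8S class term called 22 members, 21 lower, while 3.41% of all genes were called lower and 21.3% in either direction. Here too the term altered only the error and did not separate time from 5.8S content. The count was 17 without either library of the p53 mutant at 1 h, beside 10.2% of all genes, and 5 without replicate 2 of the wild type at 3 h.

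No member passed the test for a difference between the wild type and the p53 mutant. Their responses at 3 h were subtracted from each other, and limma called 0 members, beside 0.382% of all genes, with 2 members at an unadjusted p under 0.05 beside 4.69% of genes. The term for 5.8S class also gave 0, and leaving out replicate 2 of the untreated wild type gave 2. For PIF1 the difference was 0.00 (SE 0.23), for ccnb3 0.17 (SE 0.21) and for CCNB1, with the largest relative to its error of these, 0.52 (SE 0.21, adjusted p = 0.924).

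Scaling the libraries by the median of ratios changed the median of all genes by more than 0.1 at 2 h in the triple mutant in all comparisons with untreated in the other genotypes and from 1 h to 3 h in the p53 mutant, for example to -0.02 in the wild type at 3 h, against 0.23 with TPM as deposited. The 18 cell division members were below 0 under both scalings, and with mitochondrial transcripts removed, in all 3 genotypes and at every time. The matrix genes were not so stable, since 5 of 10 were below 0 at 3 h in the p53 mutant and in the wild type as deposited, and 8 and 9 after scaling. With this scaling 11 members were called lower in the p53 mutant at 3 h and 14 in the wild type, beside 0.571% and 1.63% of all genes. As deposited it was 7 and 10 members, beside 0.226% and 0.668%. Genes called lower made up 106 of 167 and 302 of 583 calls with scaling, beside 42 of 85 and 124 of 702 as deposited. From 1 h to 3 h in the p53 mutant the split was 99 of 178, beside 38 of 105.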

How the data were processed

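RNA was measured in 18 libraries of whole embryos, 2 in each of 9 groups taken from the labels. The authors deposited 1 table of TPM per genotype, in which each column sums to 1000000 within 1. Per the submitters' processing notes the build was GRCz11 and the tools were RSEM 1.3.3, STAR 2.7.3a, R 4.3.3, HTSeq 0.12.3 and DESeq2 1.42.1, without the step each served. TPM holds no read counts, so depth is unknown and no interval or floor was computed.

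Symbols came from a table of gene names and were found for 28988 of 32057 genes and for 58 of 62 members. It writes mitochondrial symbols in both cases, and both were left out. A mitochondrial gene without a symbol would not have been left out. List symbols were matched regardless of case, and to a capitalised name without its a or b suffix.

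Values were taken as log2(TPM + 1), and changes on this scale understate those of low genes. Genes under 1 TPM in all but 1 library or in every library were dropped. One model of 9 group means (limma 3.58.1, R 4.3.3, mean-dependent prior, 9 residual and 2.87 prior degrees of freedom) served for 6 comparisons that the rule did not use. Tests were two-sided, adjusted by Benjamini-Hochberg over all genes tested in a comparison and called under 0.05. The code was tested on simulated data. Tables were joined with Python 3.11.15. No sequence is shown because none was in the tables used here.

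Named genes are the 12 members with the largest change at 1 h, the 8 largest and 8 smallest differences of 3 h minus 1 h, up to 6 called members per comparison and direction, up to 6 per list and the 3 on each side of the threshold. Other names were chosen after their values were seen. The members, the lists and the role groups were chosen with earlier results of these data known.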

Additional observations from a re-analysis of the deposited data

Results flagged for a closer look

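Some members were lower in both triple mutant libraries at 3 h than in both untreated ones, and higher without overlap in another genotype. These differences between genotypes were not tested, and the changes below are on the log2(TPM + 1) scale. Set against the p53 mutant, si:dkey-222f2.3 changed by -2.60 in triple mutants and 1.30 in p53 mutants, where both untreated libraries were under 0.3 TPM. Its p53 mutant libraries at 3 h had 0.27 and 6.41 TPM, so replicate 2 carried that change. The transcription factor gene bhlha9 had -0.70 and 0.38, ENSDARG00000087318 had -0.63 and 0.38, si:ch211-217k17.9 had -0.71 and 0.63, and si:ch211-194g2.4 had -0.83 and 0.50. The matrix gene ecm2 had -0.45 in the triple mutant, against 0.39 and 0.25 in p53 mutant and wild type embryos. Set against the wild type, the receptor gene ERBB3 had -0.63 in the triple mutant and 0.46 in the wild type, the basement membrane gene FREM1 had -0.58 and 0.56, and evpla had -0.79 and 0.25. In the p53 mutant and the wild type, 3 h and untreated libraries also differ in 5.8S ribosomal RNA content, and these cannot be told apart. Without any selection, 36.4% of all genes tested in the p53 mutant and 36% in the wild type were higher at 3 h without overlap, and the median of all genes was 0.17 and 0.23. In the triple mutant 20.9% of all genes tested were lower at 3 h without overlap, and the untreated libraries there also served the rule. After median-of-ratios scaling, 4 of these 10 differences still had both pairs of libraries apart in opposite directions, and the wild type changes of evpla and ecm2 were -0.05 each. The 10 were picked for opposite directions in these same libraries, so the count of 4 carries no test and has no share of all genes beside it. None of the cell division members is among these genes.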

How the results depend on the processing

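The number of members depended on the limits of the rule. It was 190 at a threshold of -0.6 and 27 at -1, 97 with a pseudocount of 0.1 TPM and 24 with 5, and 47 to 158 when a library that the rule uses was left out. Counting only lower-case mitochondrial symbols, a choice made after seeing the data, gave 71. Leaving out each library in turn gave 0 to 1 called members for 3 h against 2 h in the triple mutant, 0 to 33 for the p53 mutant at 1 h, 3 to 10 at 3 h, 0 to 28 for 3 h against 1 h, 5 to 17 for the wild type and 0 to 2 for the difference of responses.

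For 3 h against 2 h in the triple mutant, the count of 0 became 15 within the table, 3 with the 5.8S class term (chosen after seeing the data), 11 without the libraries of high or of low 5.8S content, and 1 at a member threshold of -0.6. For the p53 mutant at 1 h, the count of 1 became 0 with a pseudocount of 0.1 TPM, no filter, median-of-ratios scaling, no mitochondrial transcripts or the within-table fit, and 31 without the libraries of low 5.8S content. For 3 h against untreated, 7 became 11 with median-of-ratios scaling, 18 with the class term, 0 within the table, 20 and 37 without the high and low 5.8S libraries, and 11 and 4 at thresholds of -0.6 and -1. For 3 h against 1 h, 3 became 16 with the class term, 0 within the table, 18 and 39 without the high and low 5.8S libraries and 8 at -0.6. In the wild type, 10 became 22, 1, 27 and 32 under these settings in the same order, and 5 at a threshold of -1. The difference of responses had a member median of 0.21 and -0.23 without the high and low 5.8S libraries, beside 0.05 and 0.08 for all genes. The cause was not tested.

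Within a genotype the replicate numbers did not pair the samples, except by 5.8S class between 1 h and untreated p53 mutants. The main model has no term for that pairing. Deviations of same-numbered libraries correlated at -0.10 to 0.17 within the triple mutant, and at 0.79 between 1 h and untreated p53 mutants, which share their 5.8S class by number, but 0.03 and 0.04 with 3 h. With the replicate block the count was 0 for the p53 mutant at 1 h and 1 for 3 h against 1 h. In the wild type the correlation was -0.34, and a block with crossed numbers, chosen after seeing the data, gave 9 calls. The depth that limits low genes is unknown.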

Other observations

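Some mitochondrially encoded transcripts that the rule leaves out also dropped below the threshold in the triple mutant. Over both spellings of the symbol 13 such genes were tested, and only symbols in capitals were examined against the rest of the rule. Among those in capitals, 9 met it, with changes from untreated of -1.24 to -0.81 at 1 h, -1.71 to -0.91 at 2 h and -1.02 to -0.63 at 3 h on the log2(TPM + 1) scale. The same 9 genes changed by -0.13 to 0.07 at 1 h and by 0.44 to 0.96 at 3 h in the p53 mutant, and by -1.09 to -0.05 at 3 h in the wild type.

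Genes of the lens, none of them a member, were also lower at 1 h in the triple mutant, with all 21 tested genes below 0 and a median of -0.26. Of all 18575 genes tested, 9114 were below 0, with a median of 0.00. Their summed level was 1814.0 to 2172.8 TPM untreated, 1491.0 to 1773.0 at 1 h, 1855.4 to 1856.6 at 2 h and 2014.1 to 2250.2 at 3 h, so the 2 h and 3 h libraries lay within or above the untreated range.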
